A study of Caenorhabditis elegans with 12 samples.

Results

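The regions described here are the H3K9me2 peaks on the arms of Chromosome IV in *C. elegans*. A peak was placed on the left arm when its midpoint lay below 3900000 and on the right arm when its midpoint lay at or above 12970000 on WS220/ce10. By this rule, 1389 of the 10457 peaks in the *wdr-5* experiment and 726 of the 5883 peaks in the *jhdm-1* experiment were arm peaks of Chromosome IV. Of the peaks on this chromosome, 79.9% in the *wdr-5* list and 70.7% in the *jhdm-1* list were on its arms. Between the arms lay 350 *wdr-5* and 301 *jhdm-1* peaks. Positions chose the members, and no level of H3K9me2 entered the choice.

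Chromatin immunoprecipitation with an antibody against H3K9me2 was followed by sequencing of whole animals, collected from populations in which all stages were present. In the first experiment, early-, mid- and late-gen *wdr-5 (ok1417)* mutants were compared with early-, mid- and late-gen wild type (N2). In the second, early- and mid-gen *jhdm-1 (ok2364)* mutants were compared with early- and mid-gen wild type, and in both generations a wild-type library was taken over from the first experiment. Each mutant was represented by 1 allele. WDR-5 is a subunit of COMPASS, the complex that methylates H3K4 during transcription, and JHDM-1 is a putative H3K9 demethylase. Each deposited list is the union of peaks over all genotypes and generations of its experiment and holds only a chromosome, a start and an end. The depth of the libraries is therefore unknown, mutants cannot be told apart from wild type, and the error between replicates cannot be given. Peaks within a list are not replicates, so no difference below was tested, and intervals cover counting error only. The intervals treat peaks as independent, although many *wdr-5* peaks lay within 1 kb of the next, so they can be too narrow. The experiments also differed in their number of groups, and the paper names more replicates of the *wdr-5* mutant than of the *jhdm-1* mutant. Read length and sequencing platform differed between replicates in both experiments. Whether this affects how the lists differ in peak number, coverage, length and gaps was not tested.

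H3K9me2 is a histone mark of repressed chromatin that in *C. elegans* is deposited mainly by the methyltransferase MET-2. The autosomes of this species have no single centromere. Their arms carry many repeats, recombine often and are held at the nuclear periphery through methylated H3K9, which the chromodomain protein CEC-4 binds, whereas their centres are rich in genes that are conserved and widely expressed. Comparing the arms of one chromosome in both peak lists shows how evenly the mark was found along such a region. A genome and annotation of WS220/ce10 were not used here, so no gene, exon or repeat was assigned to a peak and no sequence is printed.

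H3K9me2 peaks were denser on the left arm than on the right arm in both experiments. The *wdr-5* list held 941 peaks on the left arm, or 241 per Mb, and 448 peaks on the right arm, or 99.5 per Mb. The *jhdm-1* list held 500 peaks on the left arm, or 128 per Mb, and 226 on the right arm, or 50.2 per Mb. The density of the left arm was 2.42 times that of the right arm in the *wdr-5* experiment (exact binomial 95% interval from 2.16 to 2.72) and 2.55 times in the *jhdm-1* experiment (from 2.18 to 3.0). With peaks within 1 kb of each other merged, the ratio was 1.83 in the *wdr-5* list, outside its interval, and 2.49 in the *jhdm-1* list. Although the lists differed in size, the left arm held a like part of the arm peaks, 67.7% in the *wdr-5* list and 68.9% in the *jhdm-1* list.

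By length, the arms differed more in the *wdr-5* list than in the *jhdm-1* list. *wdr-5* peaks covered 856 kb of the left arm and 303 kb of the right arm, which was 22.0% and 6.74% of these arms. *jhdm-1* peaks covered 549 kb of the left arm and 270.4 kb of the right arm, or 14.1% and 6.01%. The covered share of the left arm was therefore 3.26 times that of the right arm in the *wdr-5* experiment and 2.35 times in the *jhdm-1* experiment. In base pairs, the *wdr-5* list exceeded the *jhdm-1* list by 1.56 times on the left arm and by 1.12 times on the right arm. Between the arms the order was turned round, with 2.16% covered by *wdr-5* peaks and 3.71% covered by *jhdm-1* peaks.

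Set against the region between the arms, the left arm stood out more than the right arm. In the *wdr-5* experiment, peaks per Mb on the left arm were 6.25 times those of the centre (exact binomial 95% interval from 5.52 to 7.09), and on the right arm they were 2.58 times those of the centre (from 2.24 to 2.97). In the *jhdm-1* experiment the corresponding ratios were 3.86 on the left arm (from 3.34 to 4.47) and 1.51 on the right arm (from 1.27 to 1.80). The right arm of Chromosome IV was thus the arm with the smaller excess over the centre in both lists.

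In peak density, a wide gap between the arms was also found on Chromosome V, in the other direction, but not on Chromosomes II and III. On Chromosome II, the left arm had 0.953 times the *wdr-5* peak density of the right arm (exact binomial 95% interval from 0.855 to 1.06) and 0.806 times the *jhdm-1* peak density (from 0.702 to 0.926). Chromosome III had ratios of 1.25 in the *wdr-5* list (from 1.14 to 1.38) and 1.07 in the *jhdm-1* list (from 0.936 to 1.22). On Chromosome V the right arm was the denser, with ratios of 0.245 in the *wdr-5* list (from 0.221 to 0.270) and 0.444 in the *jhdm-1* list (from 0.384 to 0.511). For *wdr-5* peaks this gap, with 86.9 per Mb on the left arm and 356 per Mb on the right arm, was wider than that of Chromosome IV. By covered share, Chromosome III also had a left-arm excess in the *wdr-5* list, with a left over right ratio of 1.82, against 1.08 in the *jhdm-1* list. These ratios were 0.977 and 0.904 on Chromosome II and 0.212 and 0.416 on Chromosome V. Of the arms of these 4 chromosomes, the right arm of Chromosome IV had the lowest density of *jhdm-1* peaks, 50.2 per Mb, just below the 52.9 per Mb of the left arm of Chromosome V. For *wdr-5* peaks this order was reversed, with 99.5 per Mb on the right arm of Chromosome IV and 86.9 per Mb on the left arm of Chromosome V. The arms of the other chromosomes were taken at approximate boundaries of recombination rate, rounded to 10 kb, so such small differences in order depend on where they were drawn.

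**Figure D1:**
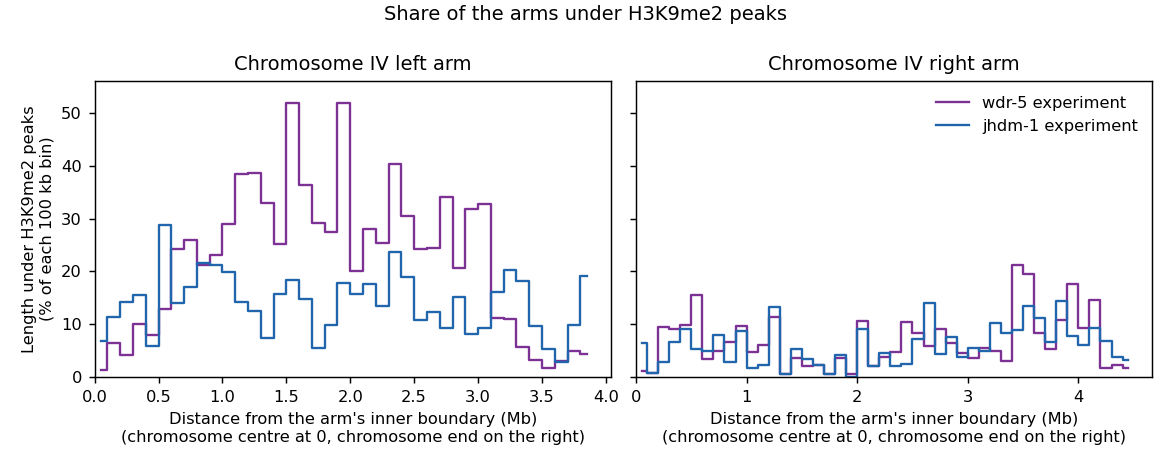
Percent of each 100 kb bin that lay under H3K9me2 peaks, plotted against the distance in Mb from the inner boundary of the left arm and of the right arm. The purple line is the *wdr-5* list and the blue line the *jhdm-1* list; the *wdr-5* line reaches 51.9% on the left arm and 21.2% on the right arm, and the lines run close together on the right arm.

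Within the left arm, the *wdr-5* peaks gathered in the middle of the arm and thinned toward both of its ends. In windows of 0.5 Mb counted outward from the boundary with the centre, the covered share was 5.98%, 21.5%, 32.8%, 39.3%, 28.8%, 27.1%, 12.8% and, in the shorter outermost window, 3.6%. The highest window covered 10.9 times the share of the lowest. *jhdm-1* peaks were spread more evenly over the same windows, with 10.8%, 20.5%, 13.9%, 13.3%, 17.9%, 11.1%, 14.8% and 9.33%, and their highest window was 2.20 times their lowest. The *wdr-5* list covered more than the *jhdm-1* list in 5 of the 8 windows. The exceptions were the innermost window and the 2 outermost windows, where the ratio of *wdr-5* to *jhdm-1* covered length was 0.554, 0.868 and 0.386.

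In the window from 1900001 to 2400000, where *wdr-5* coverage was highest, the *wdr-5* list covered 2.96 times as much as the *jhdm-1* list. It held 155 *wdr-5* peaks with a median of 741 bp and 66 *jhdm-1* peaks with a median of 752 bp. In the outermost window, from the first base to 400000, it was the *jhdm-1* list that covered more, with 30 *wdr-5* peaks of 448 bp at the median and 33 *jhdm-1* peaks of 733 bp at the median.

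Along the right arm, both lists had their lowest and their highest coverage in the same windows. The *wdr-5* list covered between 1.87% and 12.3% of 9 windows of 0.5 Mb, and the *jhdm-1* list covered between 2.16% and 10.7%. Both were lowest in the window from 14470001 to 14970000, with 19 *wdr-5* peaks and 10 *jhdm-1* peaks. Both were highest in the window from 16470001 to 16970000, with 74 *wdr-5* peaks and 44 *jhdm-1* peaks. The ratio of *wdr-5* to *jhdm-1* covered length stayed between 0.867 and 1.55, a narrower span than on the left arm.

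Over bins of 100 kb, the covered lengths in the 2 lists had a Pearson r of 0.21 on the left arm (39 bins) and of 0.56 on the right arm (45 bins), against 0.78 between the arms (90 bins). The bins are positions and not samples, they share the sequence of the genome, and the lists have wild-type libraries in common, so r is given as a description. *wdr-5* peaks covered more in 26 of the 39 bins of the left arm and in 22 of the 45 bins of the right arm. Every bin of the left arm held part of a peak in both lists. A single bin of the right arm held no *jhdm-1* peak, and none lacked a *wdr-5* peak.

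The most covered bins of 100 kb were not the same in the 2 lists. For *wdr-5* peaks on the left arm it was the bin from 1900001 to 2000000, where 27 peaks covered 51.9% and 16 *jhdm-1* peaks covered 17.8%. The left-arm bin with most *jhdm-1* coverage ran from 3300001 to 3400000, where 30 *wdr-5* peaks covered 13.0% and 11 *jhdm-1* peaks covered 28.9%. The right-arm bin from 16370001 to 16470000 had the highest *wdr-5* coverage, 21.2% by 20 peaks, with 9.0% by 7 *jhdm-1* peaks. The corresponding right-arm bin for *jhdm-1* peaks, from 16770001 to 16870000, was covered to 10.9% by 13 *wdr-5* peaks and to 14.5% by 10 *jhdm-1* peaks.

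At the inner boundary of the left arm, the comparison of both sides depended on the distance taken. Within 0.5 Mb of it, the arm side held 54 *wdr-5* peaks and the centre side 65, and *jhdm-1* peaks numbered 53 on the arm side and 55 on the centre side. Within 1 Mb, the arm side held 196 *wdr-5* peaks, which covered 13.7%, and the centre side 100, which covered 5.74%. *jhdm-1* peaks within 1 Mb numbered 128 on the arm side, with 15.7% covered, and 88 on the centre side, with 10.8% covered. Within 0.5 Mb of the inner boundary of the right arm, *wdr-5* peaks covered 6.12% of the arm side and 2.83% of the centre side, and *jhdm-1* peaks covered 5.20% and 3.74%. Within 1 Mb of it these shares were 7.09% and 2.36% for *wdr-5* peaks and 5.59% and 3.32% for *jhdm-1* peaks, so the arm side was the more covered at both distances. The members nearest to the left boundary had midpoints 52504 bp (*wdr-5*) and 22984.5 bp (*jhdm-1*) inside it, and the first peaks beyond it lay 47711 bp and 10163 bp outside. For the right boundary, the nearest members lay 29589 bp (*wdr-5*) and 43672 bp (*jhdm-1*) inside it, and the first peaks beyond it lay 39183.5 bp and 94042.5 bp outside. No midpoint of either list therefore lay within 10 kb of a boundary.

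**Figure D2:**
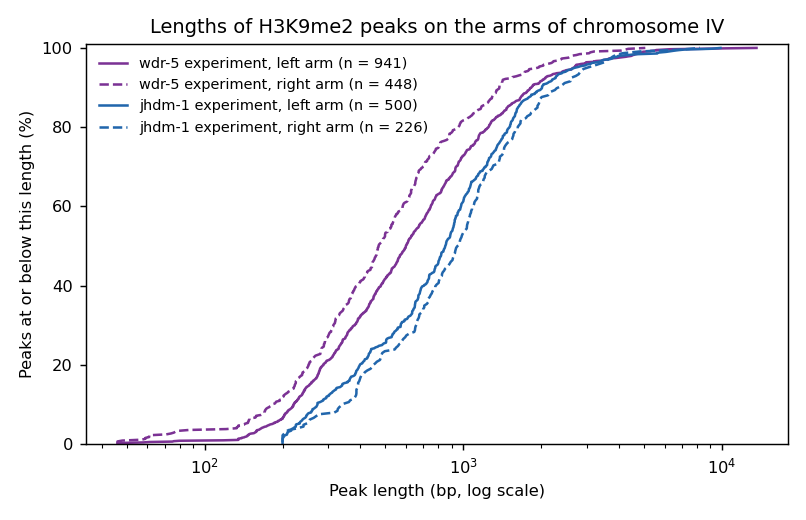
Cumulative share of peaks, in percent, against peak length in bp on a log scale, for the *wdr-5* list (purple) and the *jhdm-1* list (blue) on the left arm (solid) and the right arm (dashed). On each arm the *wdr-5* curve lies to the left of the *jhdm-1* curve, with the gap narrowing among long left-arm peaks, and the left-arm *wdr-5* curve lies to the right of the right-arm one, with medians of 600 and 470.5 bp.

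The peaks were short, and only in the *wdr-5* list was the median longer on the left arm. The median *wdr-5* peak was 600 bp long on the left arm (binomial 95% interval of the median from 560 to 643 bp) and 470.5 bp on the right arm (from 444 to 527 bp). These intervals do not overlap. The median *jhdm-1* peak was 852.5 bp on the left arm (from 799 to 913 bp) and 957 bp on the right arm (from 832 to 1052 bp), with intervals that overlap. Compared with the *jhdm-1* median, the *wdr-5* median was 0.704 times as long on the left arm and 0.492 times as long on the right arm. In the whole lists the medians were 495 bp in the *wdr-5* experiment and 833 bp in the *jhdm-1* experiment, so that the left arm held longer *wdr-5* peaks than its list did as a whole.

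Peaks of at least 2 kb numbered 79 on the left arm and 21 on the right arm in the *wdr-5* list. These were 8.40% and 4.69% of the arm's peaks, against 6.44% of all *wdr-5* peaks. They held 32.6% of the covered length on the left arm and 19.9% on the right arm. In the *jhdm-1* list, 52 left-arm peaks (10.4%) and 29 right-arm peaks (12.8%) reached 2 kb, against 12.8% of all *jhdm-1* peaks, and these held 32.3% and 34.9% of the covered length. At the short end, *wdr-5* peaks under 200 bp made up 6.27% on the left arm (59 peaks) and 11.2% on the right arm (50 peaks), against 9.9% of the whole list. No *jhdm-1* peak was shorter than 200 bp, whereas the shortest *wdr-5* peak of either arm was 46 bp long. A step that would make the shortest lengths of the lists differ is not given in the sources used here.

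Neighbouring peaks lay closer together in the *wdr-5* list. The median gap was 1204.5 bp on the left arm (binomial 95% interval from 959 to 1342 bp) and 3391 bp on the right arm (from 2577 to 4383 bp). In the *jhdm-1* list it was 4453 bp on the left arm (from 3799 to 4964 bp) and 8280 bp on the right arm (from 6274 to 10812 bp). Gaps under 200 bp made up 17.1% of the *wdr-5* gaps on the left arm, 161 in number, and 12.5% on the right arm, 56 in number. The *jhdm-1* list had none of these on the left arm and 1 on the right arm. On the arms of Chromosomes II, III and V, gaps under 200 bp made up 8.98% to 25.4% of the *wdr-5* gaps and at most 1.15% of the *jhdm-1* gaps.

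Joining peaks across gaps of up to 1 kb placed 70.6% of the left-arm and 49.1% of the right-arm *wdr-5* peaks in chains of 2 or more. For *jhdm-1* peaks these shares were 14.6% and 9.73%. On the arms of Chromosomes II, III and V, the share ran from 41.9% to 79.7% for *wdr-5* peaks and from 9.62% to 18.3% for *jhdm-1* peaks. All shares on Chromosome IV lay within these ranges. The longest *wdr-5* chain of the left arm spanned 22564 bp from 1179791 to 1202354, and its 7 peaks filled 87.2% of the span, in which 5 *jhdm-1* peaks covered 21.3%. The left-arm chain with most members had 13 *wdr-5* peaks in 16089 bp from 2476317 to 2492405. The right arm had its longest *wdr-5* chain from 16488723 to 16503481, where 10 peaks filled 82.3% of 14759 bp and 2 *jhdm-1* peaks covered 17.8%. The longest *jhdm-1* chain of the left arm, from 3312745 to 3326673, joined 2 peaks, and on the right arm the longest was a single peak. No *jhdm-1* chain had more than 3 peaks on the left arm or more than 4 on the right arm.

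Stretches without a peak were longer on the right arm. On the left arm the longest such stretch was 67268 bp for *wdr-5* peaks, from 281808 to 349075, and 60135 bp for *jhdm-1* peaks, from 167956 to 228090. For the right arm it was 88529 bp for *wdr-5* peaks, from 14659049 to 14747577, and 151418 bp for *jhdm-1* peaks, from 15293398 to 15444815. None of these stretches was empty in the other list. On the left arm, 5 *jhdm-1* peaks covered 3.77% of the *wdr-5* stretch, and 9 *wdr-5* peaks covered 6.81% of the *jhdm-1* stretch. On the right arm, 1 *jhdm-1* peak covered 0.511% of the *wdr-5* stretch, and 11 *wdr-5* peaks covered 2.96% of the *jhdm-1* stretch.

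Whether both experiments found the mark at the same places was measured by overlap. In the *wdr-5* list, 368 peaks on the left arm and 211 on the right arm overlapped a *jhdm-1* peak by at least 1 bp. These were 39.1% (95% Wilson interval from 36.0% to 42.3%) and 47.1% (from 42.5% to 51.7%), against 41% of all *wdr-5* peaks. In the *jhdm-1* list, 297 peaks on the left arm and 147 on the right arm overlapped a *wdr-5* peak. These were 59.4% (from 55.0% to 63.6%) and 65.0% (from 58.6% to 71.0%), against 55.4% of all *jhdm-1* peaks. The interval of the left-arm *wdr-5* share and that of the left-arm *jhdm-1* share include the share of their whole list, and both right-arm shares lie above it. The right arm thus had the higher share in both lists, although the list that its peaks could meet covered less of it than of the left arm. This order turned round for *jhdm-1* peaks when only peaks of at least 500 bp were kept, with 51.7% shared on the left arm and 48.6% on the right arm, and for *wdr-5* peaks when peaks within 1 kb were merged, with 49.2% and 45.8%. In the centre of Chromosome IV, the shared part was 49.1% in the *wdr-5* list and 40.2% in the *jhdm-1* list. On the arms of Chromosomes II, III and V, it ran from 36.7% to 44.0% for *wdr-5* peaks and from 48.9% to 76.4% for *jhdm-1* peaks. Both *jhdm-1* arm shares of Chromosome IV lay within this range, and so did the left-arm *wdr-5* share. The right-arm *wdr-5* share lay above its range.

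The share of *jhdm-1* peaks that met a *wdr-5* peak changed along the left arm with *wdr-5* coverage. It was 78.8% in the window from 1900001 to 2400000, where *wdr-5* coverage was highest, and 24.2% in the outermost window, where it was lowest. More *wdr-5* coverage gives a *jhdm-1* peak more room to meet a *wdr-5* peak, so coverage and this share are not independent measures. The share of *wdr-5* peaks that met a *jhdm-1* peak varied less, from 32.5% to 47.2% over the windows of this arm. That share was 31.2% in the innermost window of the right arm and 55.6% in its outermost one.

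With the requirement that each peak of a pair overlap the other by 50% of its length, 107 pairs remained on the left arm and 52 on the right arm. In the *wdr-5* list they were 11.4% of the left-arm and 11.6% of the right-arm peaks, against 9.49% of the whole list. In the *jhdm-1* list they were 21.4% (95% Wilson interval from 18.0% to 25.2%) and 23.0% (from 18.0% to 28.9%), against 16.9% of the whole list. Both *jhdm-1* intervals lie above the share of the whole list. On the arms of Chromosomes II, III and V, this share ran from 8.43% to 10.8% for *wdr-5* peaks and from 16.1% to 25.1% for *jhdm-1* peaks. The *jhdm-1* shares on Chromosome IV lay within their range, and the *wdr-5* shares lay above theirs.

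By base pairs, 222 kb of the left arm and 115 kb of the right arm lay under peaks of both lists. This was 26.0% of the *wdr-5* length and 40.5% of the *jhdm-1* length on the left arm, and 37.8% and 42.4% on the right arm. Peaks of either list together covered 30.3% of the left arm and 10.2% of the right arm. Of this joint length on the left arm, 53.6% was in *wdr-5* peaks alone, 27.6% in *jhdm-1* peaks alone and 18.8% in both. On the right arm these parts were 41.1%, 33.9% and 25%.

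**Figure D3:**
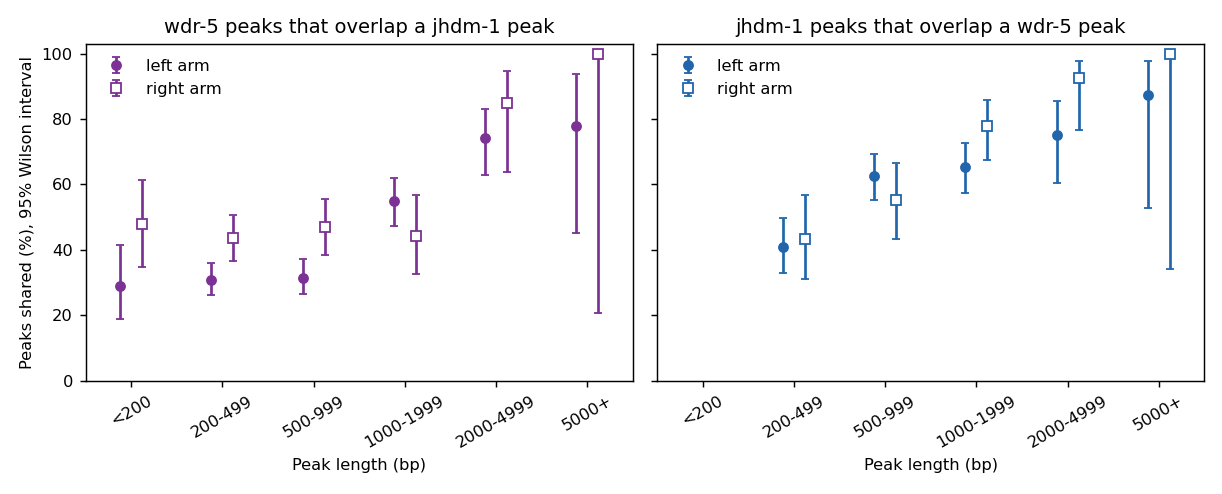
Percent of *wdr-5* peaks (left panel) and *jhdm-1* peaks (right panel) that overlap a peak of the other list by at least 1 bp, by peak length in bp, on the left arm (filled circles) and the right arm (open squares), with 95% Wilson intervals. Shares rise with length in the *jhdm-1* list; in the *wdr-5* list they stay between 28.8% and 31.5% on the left arm below 1000 bp and reach 74.3% from 2000 to under 5000 bp.

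Longer peaks were shared more often, except among the shorter *wdr-5* peaks. Their share changed little with length below 1000 bp on the left arm and did not rise with length below 2000 bp on the right arm. On the left arm, 30.8% of the *wdr-5* peaks from 200 to under 500 bp, 31.5% of those from 500 to under 1000 bp and 54.8% of those from 1000 to under 2000 bp were shared. The same classes of the right arm gave 43.6%, 46.9% and 44.3%. Of the *wdr-5* peaks under 200 bp, 28.8% were shared on the left arm and 48.0% on the right arm. Among peaks from 2000 to under 5000 bp, the share was 74.3% on the left arm (52 of 70) and 85.0% on the right arm (17 of 20). For *jhdm-1* peaks, the share on the left arm was 40.9%, 62.6%, 65.5% and 75% in these classes from short to long. On the right arm it was 43.4%, 55.2%, 77.9% and 92.6%.

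Shared *wdr-5* peaks of the left arm had a median length of 835.5 bp (binomial 95% interval from 711 to 960 bp), and unshared ones had 527 bp (from 480 to 576 bp). The right arm showed less of a gap, with 499 bp for shared *wdr-5* peaks (from 444 to 582 bp) and 464 bp for unshared ones (from 409 to 513 bp), and these intervals overlap. In the *jhdm-1* list the median was 918 bp for shared and 705 bp for unshared peaks on the left arm, and 1094 bp for shared and 688 bp for unshared peaks on the right arm. A longer peak has more room to meet another, so length and sharing are not independent measures.

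Peaks without a counterpart lay farther from the other list on the right arm. The 573 unshared *wdr-5* peaks of the left arm had a median distance of 2147 bp to the nearest *jhdm-1* peak, and 22.5% lay more than 5 kb away. For the 237 unshared *wdr-5* peaks of the right arm the median was 5791 bp, and 52.3% lay more than 5 kb away. The 203 unshared *jhdm-1* peaks of the left arm had a median distance of 2105 bp to the nearest *wdr-5* peak, and the 79 of the right arm had 2752 bp.

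One *jhdm-1* peak often met several *wdr-5* peaks, and the reverse was rare. Among shared *jhdm-1* peaks, 62 of 297 on the left arm (20.9%) and 42 of 147 on the right arm (28.6%) met 2 or more *wdr-5* peaks, up to 7. Among shared *wdr-5* peaks, 15 of 368 on the left arm (4.08%) and 2 of 211 on the right arm (0.948%) met 2 or more *jhdm-1* peaks.

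Where 1 *wdr-5* peak met 1 *jhdm-1* peak and no other, the arms differed in which list had the longer peak. Peaks that met several peaks of the other list are left out here, and so are the partners of such peaks. Among shared *jhdm-1* peaks, those that met several were 20.9% on the left arm and 28.6% on the right arm. The pairs kept 211 of 368 shared *wdr-5* peaks on the left arm and 102 of 211 on the right arm. Of the shared *jhdm-1* peaks they kept 211 of 297 and 102 of 147. The *wdr-5* peak was the longer in 135 of 211 pairs on the left arm, or 64.0% (95% Wilson interval from 57.3% to 70.2%), and in 36 of 102 pairs on the right arm, or 35.3% (from 26.7% to 44.9%). The intervals lie on opposite sides of an even split. Median lengths in these pairs were 1027 bp (*wdr-5*) and 841 bp (*jhdm-1*) on the left arm and 595.5 bp and 924 bp on the right arm. On the left arm, the *wdr-5* peak lay inside the *jhdm-1* peak in 14.7% of the pairs and the reverse held in 49.3%. On the right arm these shares were 32.4% and 26.5%. Shares for such pairs were not computed over the whole lists, so how the arms compare with them is not known.

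The ends of such pairs seldom matched. Starts differed by 297 bp and ends by 309 bp at the median on the left arm, and by 213 bp and 259.5 bp on the right arm. Both ends lay within 50 bp of each other in 4 pairs on each arm, and no pair had identical ends. The common length was 40.7% of the joint length at the median pair on the left arm and 44.2% on the right arm.

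**Figure D4:**
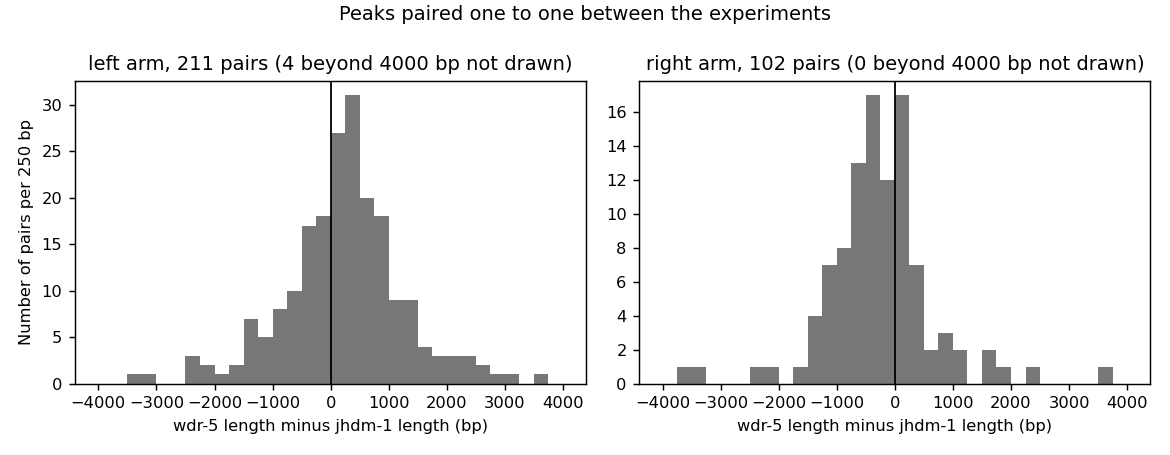
Number of pairs per 250 bp of length difference (*wdr-5* minus *jhdm-1*, in bp), where each peak meets only its partner in the other list. There are 211 pairs on the left arm, of which 4 beyond the drawn range are left out, and 102 on the right arm. Most left-arm pairs lie right of 0, where the *wdr-5* peak is longer, and most right-arm pairs lie left of 0.

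The longest *wdr-5* peak of the left arm spanned 13596 bp from 1960076 to 1973671, and 3 *jhdm-1* peaks of 982, 1047 and 860 bp lay wholly inside it and covered 21.2% of it. The next spanned 10162 bp from 1937145 to 1947306, and held a single *jhdm-1* peak of 200 bp, the shortest length in that list. In the third, 8444 bp from 1186714 to 1195157, *jhdm-1* peaks covered 19.9%. Each of the 3 longest *wdr-5* peaks of the left arm was thus covered to 21.2% or less by the other list.

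The longest *jhdm-1* peak of the left arm spanned 9866 bp from 688400 to 698265, and 5 *wdr-5* peaks of 734 to 4587 bp lay wholly inside it and covered 85.2% of it. The second, 9130 bp from 3317544 to 3326673, held 7 *wdr-5* peaks of 58 to 763 bp, which covered 30.4%. The third, 7170 bp from 2726933 to 2734102, was met only at its left end, where a *wdr-5* peak of 726 bp reached 350 bp into it. The shares of these 3 peaks covered by the other list thus ranged more widely than those of the 3 longest *wdr-5* peaks, and overlapped them.

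The right arm had fewer long peaks, and the longest of both lists fell in the same place. The longest *wdr-5* peak there, 5053 bp from 14210585 to 14215637, lay wholly inside the longest *jhdm-1* peak, 8204 bp from 14207987 to 14216190. A second *wdr-5* peak, of 2582 bp, met the same *jhdm-1* peak, and together they covered 90% of it. The second longest *wdr-5* peak, 4341 bp from 13929258 to 13933598, was covered to 82.6% by a single *jhdm-1* peak of 3585 bp. The third, 4217 bp from 15015451 to 15019667, was covered to 11.5%. The second longest *jhdm-1* peak, 6853 bp from 13733768 to 13740620, met 3 *wdr-5* peaks that covered 62.1% of it. The third, 4811 bp from 15595698 to 15600508, met 7 *wdr-5* peaks of 168 to 582 bp that covered 41.6%.

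**Figure D5:**
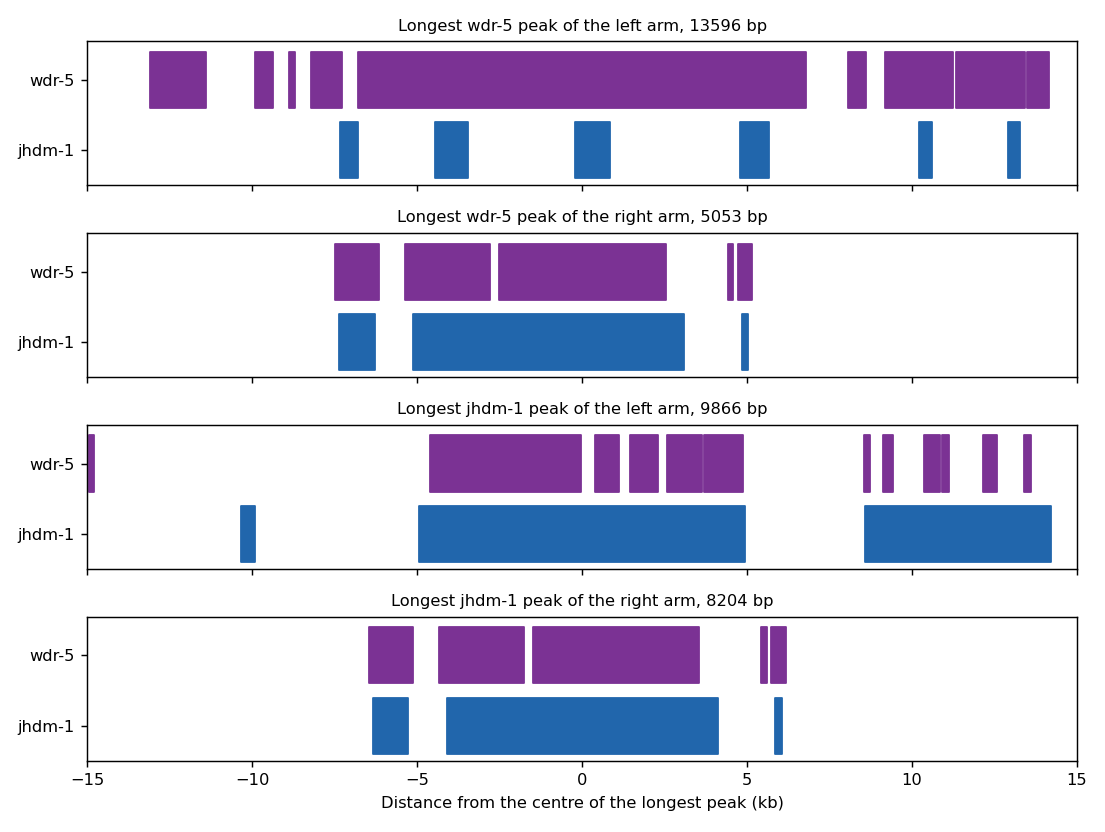
Maps of 30 kb around the longest peak of each list on each arm, with *wdr-5* peaks (purple) above *jhdm-1* peaks (blue) and the distance from the centre of the longest peak in kb. The left-arm *wdr-5* peak of 13596 bp spans 3 short *jhdm-1* peaks, the left-arm *jhdm-1* peak of 9866 bp spans 5 *wdr-5* peaks, and both right-arm maps show the same place.

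Long peaks without any counterpart were found in both lists. On the left arm, the longest such *wdr-5* peak was 5933 bp long, from 1171744 to 1177676, and the nearest *jhdm-1* peak lay 638 bp before its start. The longest such *jhdm-1* peak there was 6673 bp long and was also the outermost *jhdm-1* peak of the arm, from 3268 to 9940. The nearest *wdr-5* peak lay 1194 bp from it, on the side of the chromosome end, from 1743 to 2073. On the right arm, the longest peaks without a counterpart were 2548 bp long in the *wdr-5* list, from 13492822 to 13495369, and 2913 bp in the *jhdm-1* list, from 17285995 to 17288907. The *wdr-5* peak lay 8138 bp from the nearest *jhdm-1* peak, and the *jhdm-1* peak lay 935 bp from the nearest *wdr-5* peak.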

How the data were processed

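H3K9me2 ChIP-seq peaks came from 6 groups of the *wdr-5* experiment and 4 groups of the *jhdm-1* experiment. After read filtering, the authors used Bowtie2 for alignment to WS220/ce10 and MACS2 2.1.1 for calling broad peaks (versions from the submitters' processing notes). Per experiment, the authors deposited the union of the peaks that recurred in 2 or more replicates of a group, as start and end positions without a score. Broad calling and the union decide where a region is divided, which affects numbers, lengths and gaps.

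Peaks were assigned to arms by midpoint, and printed positions count from 1. The right arm was taken to the last peak end of either list, 17471472, which makes it 4.50 Mb long. Overlaps of at least 1 bp were counted with Python 3.11.15, numpy 2.4.6 and scipy 1.17.1 against all peaks of Chromosome IV in the other list, and matched bedtools 2.31.1 counts. Functions were tested on simulated lists. Peak lists give no depth. The named regions follow a rule: per list and arm, the 3 longest peaks, the longest peak without a counterpart, the longest chain and gap, the most covered 100 kb bin, and the peaks next to each boundary. Other chain, window and outermost-peak values were added after the data were seen. The regions and choices were made with earlier results of these data known. The gene table at hand is of another build, WBcel235, and was not used.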

Additional observations from a re-analysis of the deposited data

How the results depend on the processing

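Over 30 results, 90 alternatives were computed. Of these, 57 stayed within the counting interval of the first value (or within 1.5 times it where no such interval applies). The other 33 moved further, and 0 were called reversed. A reversal could be called only for the density ratios, the list ratios and r. A change in the order of the arms in other measures, such as sharing, was not part of this tally. Moving both arm boundaries by 0.5 Mb in either direction left every count, covered share, density ratio and shared share computed under it within these limits. Unless stated, the cause of a move was not tested.

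Keeping only peaks of at least 500 bp removes peaks by construction. It left 548 *wdr-5* peaks on the left arm and 210 on the right arm, a left over right density ratio of 3.01 in the *wdr-5* list, and *wdr-5* over *jhdm-1* numbers of 1.47 (left) and 1.21 (right). Median lengths became 956.5 and 853 bp (*wdr-5*, left and right) and 1020 and 1130 bp (*jhdm-1*), median gaps 2083 and 5165 bp and 5934 and 11905 bp, and the shared share of *jhdm-1* peaks 51.7% (left) and 48.6% (right), so that the right arm no longer had the higher share in that list. Merging peaks within 1 kb left 492 *wdr-5* peaks on the left arm, with medians of 1111 bp (left) and 606.5 bp (right), a *wdr-5* density ratio of 1.83, list ratios of 1.06 (left) and 1.45 (right), and 49.2% of left-arm *wdr-5* peaks shared, above the 45.8% of the right arm. The order of the arms in sharing therefore depended on these settings.

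An overlap of 50% of both peaks gave shared shares of 11.4% and 11.6% (*wdr-5*, left and right) and 21.4% and 23.0% (*jhdm-1*), and counting peaks within 1 kb as shared gave 56.3%, 58.9%, 71% and 72.1%. The r between lists was 0.53 (left) and 0.93 (right) in bins of 500 kb, and 0.44 on the left arm for peak midpoints. The values for 500 kb rest on far fewer bins than the 39 (left) and 45 (right) of 100 kb.

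No paired analysis was possible because each list pools its replicates, and leaving out a replicate was not possible for the same reason. The lists give no depth, so the absence of a peak was not told apart from a lack of reads.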
